A study of Macaca mulatta with 23 samples.

Results

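The 50 genes described here act in the G2 and M phases of the cell cycle. They comprise mitotic cyclins and their kinase, activators and substrates of the anaphase-promoting complex, checkpoint kinases, kinetochore proteins, spindle motors and proteins that shape chromosomes. They were chosen by symbol, and a gene was measured if a probe had a detection p-value under 0.05 on at least 5 of 23 arrays. The 50 genes had 84 probes, of which 47 passed, and these gave 36 measured genes among 9190 genes tested. The other 14 were CCNB1, UBE2S, BUB1, CENPN, ZWINT, KIF20A, KIF23, KIF4A, TPX2, PRC1, HMMR, NCAPG, NCAPH and MKI67. For CCNB1, the other B-type cyclin, and MKI67, which encodes the Ki-67 antigen of dividing cells, no array had a detected signal. The threshold fell between KIF11 and TOP2A, each detected on 5 arrays, and PRC1, detected on 3.

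A cell that divides copies its chromosomes, enters mitosis when cyclins activate the kinase CDK1, and attaches each chromosome to the spindle at its kinetochore. The anaphase-promoting complex with its activator CDC20 then marks securin and the mitotic cyclins for destruction, and the chromosomes part. Most of these genes are transcribed late in the cycle, so in blood T cells, which are mostly at rest, their RNA comes largely from the cells in cycle. In bulk RNA, more cells in cycle and more RNA per cycling cell cannot be told apart.

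Blood mononuclear cells of 12 rhesus macaques were sorted for the effector memory fraction of CD8+ T cells (TEM), and total RNA of the sorted cells was hybridised to Illumina bead arrays. One arm received an IgG1 control antibody, and the other an antibody against interleukin-15 (IL-15), a cytokine on which natural killer cells and CD8+ memory T cells depend. The control antibody group gave 6 arrays at each time, and the anti-IL-15 group 5 before treatment and 6 after. Animal 3 of the anti-IL-15 arm had only the later array, so 11 animals were paired. The dose, the animals' age and the interval between the samples are not given in the sources used here. The probes were designed on human genes, so a low signal can also reflect a mismatch to the macaque transcript. Levels are log2 intensities after background correction and quantile normalisation, and levels of different genes are not set against each other. The lowest signal that counted as detected was 4.82 to 5.04 on this scale, depending on the array.

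The sorted population carried T cell transcripts on every array. CD3D, CD3G, CD8A, GZMA, GZMK and PRF1 were detected on 23 of 23 arrays and CD4 on 0, while CD8B was detected on 9 and CD3E on 1. Among other CD4 T cell markers, IKZF2 was detected on 23 arrays, IL2RA on 7, FOXP3 on 4, CTLA4 on 2 and CCR4 on 0. Of neutrophil markers, FCGR3B was detected on 22, CAMP on 17, CXCR2 on 4, CSF3R on 1 and S100A12, MMP9 and ELANE on 0. Of gamma delta and mucosal-associated invariant T cell markers, KLRB1 was detected on 18, ZBTB16 on 13 and SLC4A10 on 0. The B cell genes PAX5 and BANK1 and the plasma cell genes JCHAIN and TNFRSF17 were detected on 0 arrays. The monocyte gene S100A8 was detected on 1, while CD14, CD68, MZB1, XBP1 and PRDM1 from the same lists were detected on all 23. The B cell genes CD79A, CD79B, CD22 and MS4A1 were detected on 20, 17, 12 and 11 arrays. Of naive and central memory genes, IL7R was detected on 23 arrays, CD27 on 21 and LEF1 on 17. CCR7, CD28 and MAL were detected on 3, 2 and 4. In all, 4 of 9 B cell, 4 of 7 plasma cell and 6 of 12 monocyte and dendritic markers were measured, and none of these was called in either arm. Of 5 measured natural killer cell markers, KLRF1, FCGR3A, TYROBP and NCR3 were detected on all 23 arrays. NCR3, an activating receptor, fell with anti-IL-15 by 0.99 on the log2 scale (limma, adjusted p = 0.0452) and was the gene called between the arms after treatment, at -1.70 (adjusted p = 0.0131). The summed intensity of these 5 markers ran from 1977 to 3902 before and 1867 to 4241 after the control antibody, and from 1934 to 3756 before and 1099 to 3792 after anti-IL-15. Of 12 measured TEM markers, 6 fell with the control antibody, CD8A and CX3CR1 among them, and 1, again CX3CR1, fell with anti-IL-15. The change of CX3CR1 was -1.43 with the control antibody and -1.26 with anti-IL-15. Over all 9190 genes, 135 fell with the control antibody and 34 with anti-IL-15. Haemoglobin transcripts were present on all arrays. The summed intensity of the 5 measured platelet and erythrocyte markers ran from 992 to 19212 before and 1223 to 13737 after the control antibody, and from 1287 to 26921 before and 1470 to 31036 after anti-IL-15. The part of natural killer cells, platelets, erythrocytes and other cell types in the results was not tested. Each array detected 11263 to 14132 of 47230 probes.

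After anti-IL-15, 4 of the 36 measured genes rose and none fell (limma, adjusted p under 0.05 over all genes). They were the anaphase activator CDC20, the centromere protein gene CENPW, and the cyclin genes CCNA2 and CCNB2, with rises of 4.24-fold, 3.01-fold, 1.90-fold and 1.86-fold. Over all genes tested, 0.446% rose and 0.37% fell, against 11.1% and 0% of the measured mitosis genes. Among the 29 mitosis genes that pass the detection filter without the anti-IL-15 arrays after treatment, CCNB2 is not included and 3 rose (10.3%), against 0.428% of the 8636 genes that do so. The control antibody was followed by no called change among the 36 genes, and 2.19% of all genes were called there. The difference between the arms was itself not called for any of the 36 genes.

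**Figure D1:**
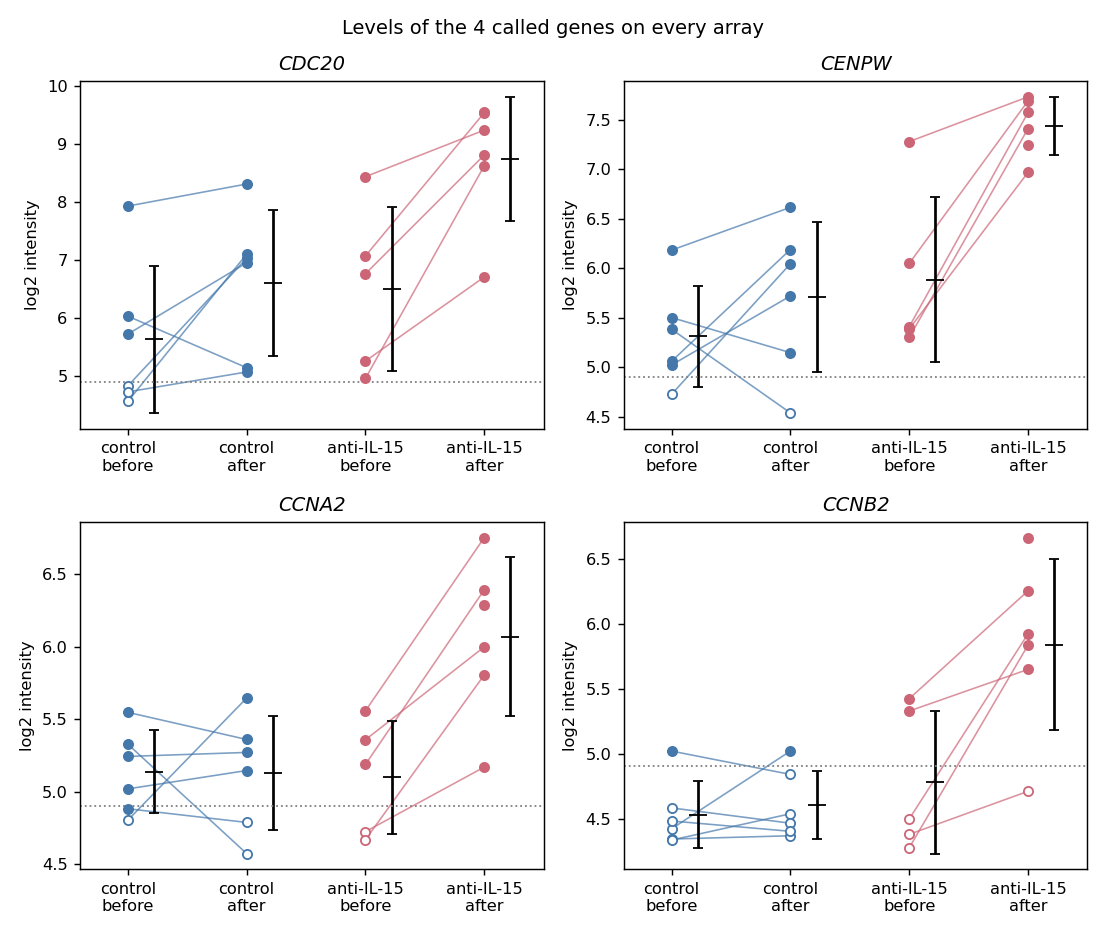
Log2 intensity of CDC20, CENPW, CCNA2 and CCNB2 on each of the 23 arrays, by group, with lines joining the 2 arrays of an animal. Filled points were detected and open points were not, black bars give the group mean ± SD, and the dotted line marks the mean detection floor of 4.90; the lines rise in 5 of 5 animals given anti-IL-15 in every panel.

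Among the regulators of the anaphase-promoting complex, CDC20 encodes the activator that recruits its mitotic substrates. In the anti-IL-15 arm its level went from 7.07 to 9.54 in animal 1, 6.76 to 8.81 in animal 2, 8.44 to 9.24 in animal 4, 5.26 to 6.71 in animal 5 and 4.96 to 8.63 in animal 6. The array of animal 3 after treatment read 9.55. The lowest, median and highest levels in the control arm were 4.56, 5.28 and 7.93 before and 5.07, 6.99 and 8.31 after the antibody. Animal 5 stayed well below the other anti-IL-15 animals after treatment, and the 2 times overlapped in both arms. The fitted change was 2.09 ± 0.41 (log2, SE) with anti-IL-15 (limma, adjusted p = 0.0243), higher in 5 of 5 animals. With the control antibody it was 0.97 ± 0.37 (adjusted p = 0.147), higher in 5 of 6 animals. The difference of the changes was 1.12 ± 0.55 (adjusted p = 0.529), so the rise was not shown to differ between the arms.

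The rest of that group did not pass the test. UBE2C, the ubiquitin-conjugating enzyme of the complex, had a value of 0.75 ± 0.21 after anti-IL-15 (limma, adjusted p = 0.105) with detection on 2 of 5 earlier and 4 of 6 later arrays. PTTG1 encodes securin, which keeps separase inactive until anaphase. Its change was 0.35 ± 0.20 with anti-IL-15 (adjusted p = 0.421) and -0.40 ± 0.18 with the control antibody (adjusted p = 0.239), and a second PTTG1 probe gave 0.33 and -0.40. UBE2S, which extends the ubiquitin chains, was detected on 0 arrays.

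Cyclin A2, encoded by CCNA2, drives CDK activity from S phase into early mitosis. CCNA2 went from 5.36 to 6.00 in animal 1 given anti-IL-15, 5.19 to 6.39 in animal 2, 5.56 to 6.75 in animal 4, 4.72 to 5.17 in animal 5 and 4.67 to 5.81 in animal 6, and animal 3 read 6.28 after treatment. The control arm read 4.80, 5.13 and 5.55 (lowest, median, highest) before and 4.57, 5.21 and 5.65 after. All values before treatment lay near the detection floor, and the highest level before anti-IL-15 exceeded the lowest level after it. The change was 0.92 ± 0.21 with anti-IL-15 (limma, adjusted p = 0.0427) and -0.01 ± 0.19 with the control antibody (adjusted p = 0.992). Their difference of 0.93 ± 0.28 was the one with the smallest p among the 36 genes and was not called (adjusted p = 0.346).

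CCNB2 encodes a B-type cyclin that activates CDK1 at the entry to mitosis. Its level went from 5.33 to 5.65, 4.50 to 5.92, 5.42 to 6.25, 4.38 to 4.71 and 4.27 to 5.83 in anti-IL-15 animals 1, 2, 4, 5 and 6, and it was 6.66 after treatment in animal 3. In the control arm it read 4.33, 4.45 and 5.02 (lowest, median, highest) before and 4.37, 4.50 and 5.02 after. Detection was rare outside the anti-IL-15 arrays after treatment, with 1 of 6 arrays at each time in the control arm and 2 of 5 before anti-IL-15, against 5 of 6 after it. CCNB2 therefore passed the detection filter only because of the anti-IL-15 arrays after treatment. The change was 0.89 ± 0.19 with anti-IL-15 (limma, adjusted p = 0.0354) and 0.07 ± 0.17 with the control antibody (adjusted p = 0.859), and their difference was 0.82 ± 0.26 (adjusted p = 0.348).

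The remaining genes around the cyclin-dependent kinase gave smaller values. CKS2, a small CDK-binding subunit, was higher after anti-IL-15 in 5 of 5 animals with a change of 0.74 ± 0.23 (limma, adjusted p = 0.133), and its second probe gave 0.39. CDK1 itself had a value of 0.22 ± 0.24 after anti-IL-15 (adjusted p = 0.703) and one of -0.48 ± 0.22 after the control antibody (adjusted p = 0.226), where it was lower in 6 of 6 animals. CKS1B, the other CDK-binding subunit, and CDKN3, a phosphatase that acts on CDKs, had changes of 0.27 and 0.42 with anti-IL-15. All 6 measured genes of this role had values above 0 with anti-IL-15, with 2 called, and 3 of 6 did with the control antibody, with none called.

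**Figure D2:**
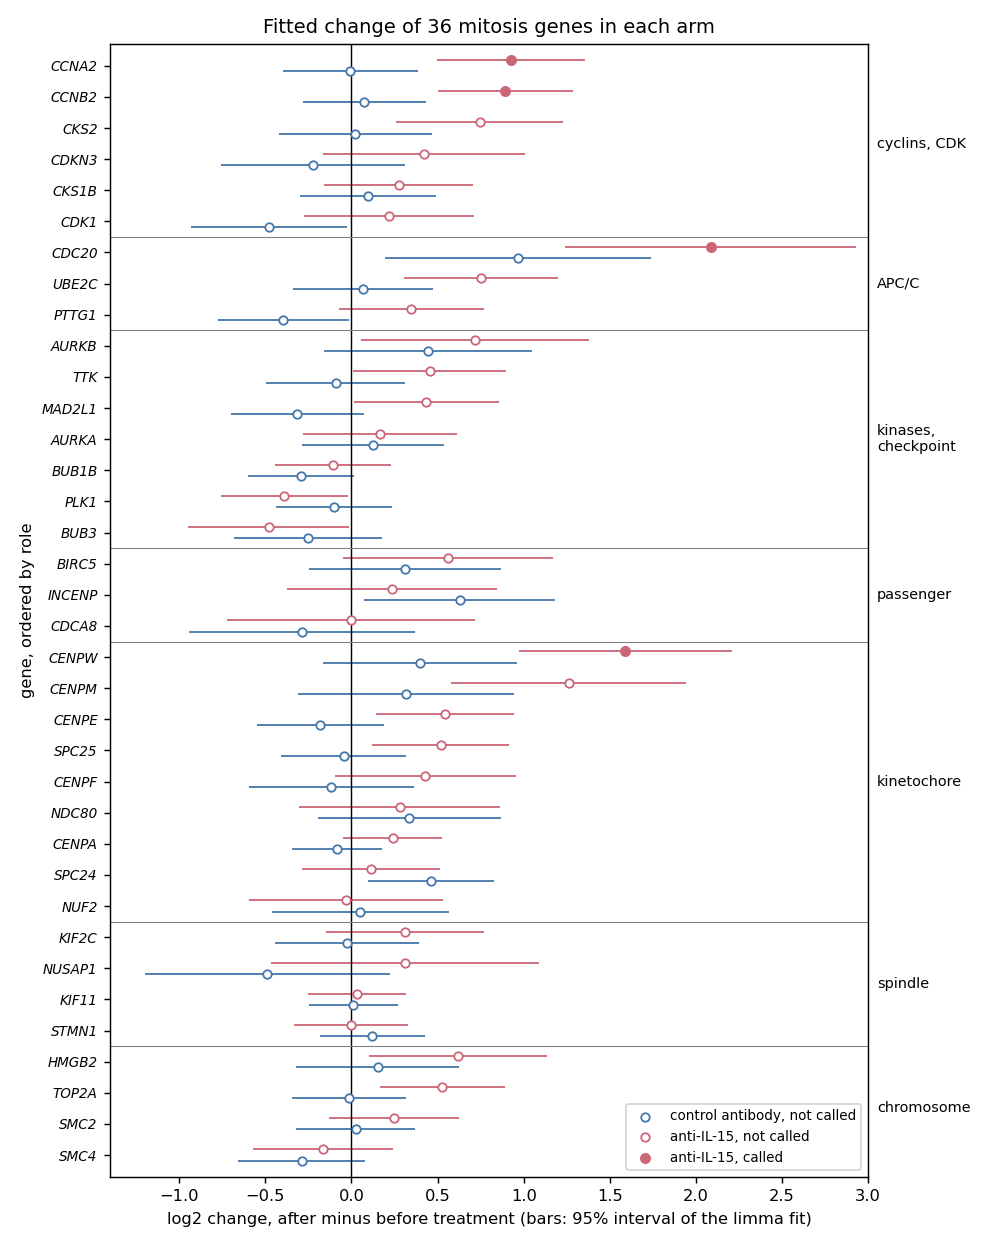
Fitted log2 change (after minus before) of the 36 measured genes in each arm, ordered by role; bars are 95% intervals of the limma fit and filled points are called. The 4 filled points lie between 0.89 and 2.09, all in the anti-IL-15 arm.

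At the kinetochore, the protein platform that joins a centromere to spindle microtubules, CENPW was the called gene. CENPW belongs to the inner, constitutive centromere network. Its level went from 6.05 to 7.69, 5.30 to 7.41, 7.28 to 7.73, 5.39 to 6.97 and 5.41 to 7.57 in anti-IL-15 animals 1, 2, 4, 5 and 6, and it was 7.24 after treatment in animal 3. The control arm read 4.72, 5.22 and 6.18 (lowest, median, highest) before and 4.54, 5.88 and 6.61 after. Animal 4 had started high and moved least, and its level before treatment exceeded the lowest level after it. After treatment the lowest anti-IL-15 level, 6.97, lay above the highest control level. The change was 1.59 ± 0.30 with anti-IL-15 (limma, adjusted p = 0.0189) and 0.40 ± 0.27 with the control antibody (adjusted p = 0.455), with a difference of 1.19 ± 0.40 (adjusted p = 0.371).

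CENPM, of the same inner network, came next with a change of 1.26 ± 0.33 after anti-IL-15 (limma, adjusted p = 0.0749), higher in 5 of 5 animals. Its 2 other probes gave 0.90 and 0.39. CENPE, a kinesin that carries chromosomes to the spindle equator, and SPC25, a subunit of the microtubule-binding NDC80 complex, had changes of 0.54 and 0.52 (adjusted p = 0.180 and 0.198). The other NDC80 complex subunits gave smaller values. With anti-IL-15 the value was 0.28 for NDC80, 0.11 for SPC24 and -0.03 for NUF2, and SPC24 had the larger value with the control antibody, 0.46 ± 0.17 (adjusted p = 0.142). CENPF, an outer kinetochore protein, had a value of 0.43 with anti-IL-15. CENPA, the histone H3 variant that marks centromeres, had a value of 0.24. CENPA was higher in 5 of 5 animals but detected on only 6 arrays. Of the 9 measured kinetochore genes, 8 had values above 0 in the anti-IL-15 arm and 5 in the control arm.

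The mitotic kinases and the spindle checkpoint, which holds anaphase until every chromosome is attached, showed no called change in 7 measured genes. AURKB, the kinase of the chromosomal passenger complex, had the smallest p of these. AURKB went from 7.63 to 8.46, 8.33 to 7.95, 7.78 to 8.43, 6.94 to 7.29 and 6.30 to 8.44 in anti-IL-15 animals 1, 2, 4, 5 and 6 and was 8.31 after treatment in animal 3. The control arm read 4.92, 6.64 and 7.36 (lowest, median, highest) before and 4.59, 7.03 and 8.51 after. Animal 6 made the largest move and animal 2 went down, and the groups overlapped. The fitted change was 0.72 ± 0.32 with anti-IL-15 (limma, adjusted p = 0.293) and 0.44 ± 0.29 with the control antibody (adjusted p = 0.435). The checkpoint kinase TTK and the checkpoint protein MAD2L1 had changes of 0.45 and 0.43 with anti-IL-15 (adjusted p = 0.315 and 0.313). A second MAD2L1 probe gave 0.26. AURKA, a spindle pole kinase, gave 0.16 and the checkpoint kinase BUB1B gave -0.11.

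Values below 0 were found in the same group of genes. The kinase PLK1 had a value of -0.39 ± 0.18 with anti-IL-15 (limma, adjusted p = 0.300). Detection on 3 of 5 earlier and 0 of 6 later arrays bounds it as at least 1.04-fold lower after treatment. PLK1 was detected on 6 arrays, all before treatment, and passed the filter only through them, so the bound is a description. BUB3, a checkpoint protein that docks BUB kinases at kinetochores, gave -0.48 ± 0.22 (adjusted p = 0.315), and of its 2 other probes 1 gave -0.25 and 1 gave 0.29. The probes of BUB3 thus disagreed in sign.

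The other subunits of the chromosomal passenger complex, which corrects faulty attachments, were not called either. BIRC5, or survivin, went from 6.99 to 7.74, 6.90 to 7.78, 7.22 to 6.71, 5.30 to 5.21 and 6.01 to 7.77 in anti-IL-15 animals 1, 2, 4, 5 and 6 and was 7.41 after treatment in animal 3. The control arm read 5.02, 5.49 and 6.03 (lowest, median, highest) before and 5.17, 5.72 and 6.79 after. The level was higher after anti-IL-15 in 3 of 5 animals, with a fitted change of 0.56 ± 0.29 (limma, adjusted p = 0.369). INCENP, the scaffold, had values of 0.24 after anti-IL-15 and 0.63 after the control antibody (adjusted p = 0.193), and CDCA8, or borealin, had values of 0.00 and -0.29. For CDCA8 with anti-IL-15, animal 4 had a value of -2.26 and the other 4 animals values of 0.41 to 0.76.

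Only 4 of 10 listed spindle and cytokinesis genes were measured, and none was called. KIF2C, a kinesin that shortens microtubules, went from 4.89 to 6.05, 5.41 to 4.63, 4.49 to 5.07, 4.55 to 4.47 and 4.86 to 5.55 in anti-IL-15 animals 1, 2, 4, 5 and 6 and was 5.82 after treatment in animal 3. The control arm read 4.68, 4.94 and 5.51 (lowest, median, highest) before and 4.65, 5.06 and 5.20 after. The animals moved both ways, and the fitted change was 0.31 ± 0.22 with anti-IL-15 (limma, adjusted p = 0.522). NUSAP1, which bundles spindle microtubules, gave 0.31. KIF11, the motor that pushes spindle poles apart, gave 0.03, and the microtubule destabiliser STMN1 gave 0.00. The motors KIF20A, KIF23 and KIF4A and the spindle proteins TPX2, PRC1 and HMMR had no probe past the filter, with at most 3 arrays detected.

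Of the genes for chromosome structure, TOP2A, the topoisomerase that untangles sister chromatids, had the smallest p. TOP2A went from 4.74 to 5.78, 4.94 to 4.83, 4.92 to 5.78, 4.53 to 4.53 and 4.55 to 5.39 in anti-IL-15 animals 1, 2, 4, 5 and 6 and was 6.13 after treatment in animal 3. Levels in the control arm ran from 4.36 to 4.85 before and 4.30 to 4.68 after, all undetected. The change with anti-IL-15 was 0.53 ± 0.17 (limma, adjusted p = 0.159), and it too passed the filter only through the anti-IL-15 arrays. HMGB2, a DNA-bending chromatin protein, gave 0.62 ± 0.25 (adjusted p = 0.238) with the probe used and 0.02 with its second probe. The condensin core genes SMC2 and SMC4 had changes of 0.25 and -0.17, and the condensin subunit genes NCAPG and NCAPH were not measured.

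The paired animals of each arm differed among themselves. The number of the 36 genes with a value above 0 was 31, 26, 20, 22 and 30 in animals 1, 2, 4, 5 and 6, with median changes of 0.51, 0.39, 0.10, 0.14 and 0.73. In control animals 1 to 6 it was 21, 19, 21, 21, 11 and 14, with medians of 0.02, 0.01, 0.26, 0.14, -0.18 and -0.08. Control animal 3 therefore had a larger median than anti-IL-15 animals 4 and 5, and its median over all genes was 0.06. Over all genes, the share above 0 was 43.7, 43.8, 51.4, 42.6 and 51.0% in anti-IL-15 animals 1, 2, 4, 5 and 6. In control animals 1 to 6 that share was 44.7, 46.2, 55.4, 42.4, 44.2 and 52.2%. The 36 genes include 7 that passed the filter only through the anti-IL-15 arrays after treatment, so their counts are a description. In 5 of 5 anti-IL-15 animals, 8 genes were higher after treatment, which were CCNA2, CCNB2, CKS2, CDC20, CENPA, CENPE, CENPM and CENPW. That is 22.2% of the measured mitosis genes against 4.96% of all genes. CCNB2 and CENPA had passed the filter only through the anti-IL-15 arrays after treatment, and among the 29 genes that pass without them the share was 20.7%, against 4.91% of all such genes. None of the 36 genes was higher in 6 of 6 control animals, against 4.96% of all genes. No mitosis gene had every anti-IL-15 array after treatment above every array before it, which held for 0.598% of all genes.

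**Figure D3:**
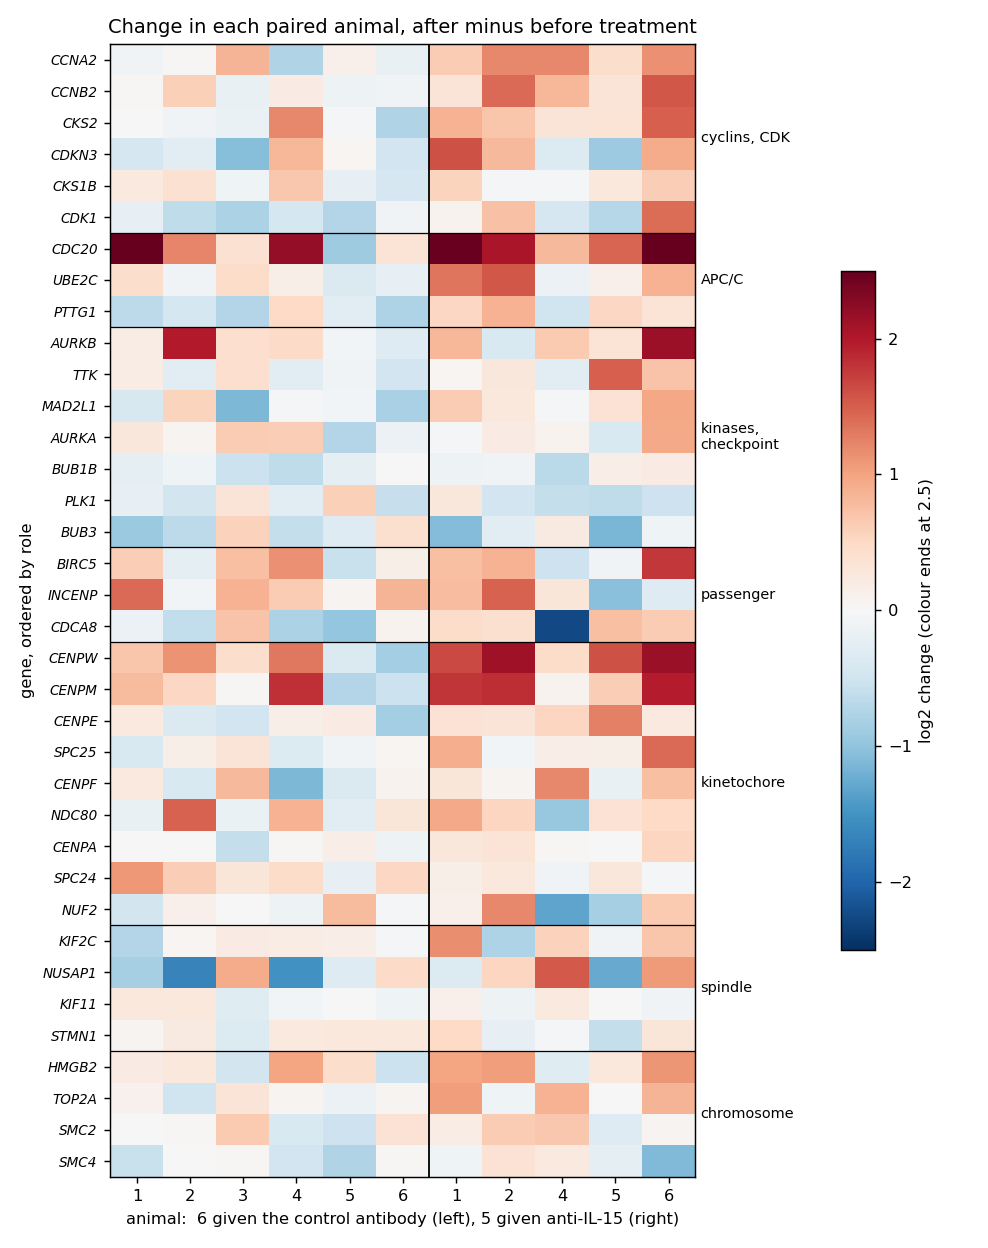
Log2 change (after minus before) of each of the 36 measured genes in the 6 paired control animals and the 5 paired anti-IL-15 animals, rows ordered by role. The columns of anti-IL-15 animals 1 and 6 are red in 31 and 30 of 36 rows, and the row of CDC20 is red in 10 of 11 columns.

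The median change of the 36 genes was 0.33 with anti-IL-15, against -0.05 over all genes, and 80.6% of them had a value above 0 against 42.4%. With the control antibody the median was 0.00, against -0.04 over all genes, and 18 of 36 were above 0. Of the 36 genes, 7 (CCNB2, UBE2C, MAD2L1, CENPA, SPC25, KIF11 and TOP2A) passed the filter only through the anti-IL-15 arrays after treatment. The 11 genes detected on all 23 arrays had a median of 0.35 with anti-IL-15 and 9 above 0, and a median of 0.10 with the control antibody and 7 above 0. None of those 11 was called. At an unadjusted p under 0.05, 16 of the 36 genes passed with anti-IL-15, 14 of them higher, against 15.3% of all genes. With the control antibody 5 of the 36 passed (13.9%), against 19.2% of all genes. The 16 included CCNB2, UBE2C, MAD2L1, SPC25 and TOP2A, which had passed the filter only through the anti-IL-15 arrays after treatment. The share with anti-IL-15 is therefore given as a description.

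The difference of the changes between the arms was called for 0.0109% of all genes by limma and for none of the 36. At an unadjusted p under 0.05 there were 12 of 36, against 9.7% of all genes. All 12 had the larger change in the anti-IL-15 arm. These 12 included CCNB2, UBE2C, MAD2L1, SPC25 and TOP2A, which had passed the filter only through the anti-IL-15 arrays after treatment. The share is therefore given as a description. The median difference was 0.40, against -0.01 over all genes, and it was above 0 for 29 of 36. For the 11 genes detected on every array the median was 0.28, with 8 above 0. For the other 25 it was 0.54, with 21 above 0. After CCNA2 the smallest p-values belonged to CCNB2, CENPW and CENPE, with a difference of 0.72 ± 0.26 for CENPE (adjusted p = 0.386). PTTG1 and MAD2L1 differed by 0.74 and 0.75 (adjusted p = 0.401 and 0.403). For the probes used, both had a value above 0 in the anti-IL-15 arm and below 0 in the control arm. The second MAD2L1 probe gave 0.26 with anti-IL-15, 0.03 with the control antibody and a difference of 0.22.

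Between the arms after treatment, 0.0109% of all genes were called and none of the 36. At an unadjusted p under 0.05, 20 of the 36 passed, 19 of them higher after anti-IL-15, against 7.97% of all genes. These 20 included CCNB2, UBE2C, MAD2L1, CENPA, SPC25 and TOP2A, which had passed the filter only through the anti-IL-15 arrays after treatment. The share is therefore given as a description. This comparison uses the same later arrays as the change with anti-IL-15. CENPW had the smallest p with a difference of 1.73 ± 0.31 (limma, adjusted p = 0.0750), followed by CCNB2 with 1.23 ± 0.26 (adjusted p = 0.0932). CDC20 differed by 2.14 ± 0.54 (adjusted p = 0.201), CENPM by 1.55 ± 0.45 (adjusted p = 0.316) and BIRC5 by 1.29 ± 0.40 (adjusted p = 0.353). The interval of each of these estimates lay above 0 before adjustment. TOP2A was detected on 4 of 6 anti-IL-15 arrays and 0 of 6 control arrays, at least 1.41-fold higher (adjusted p = 0.171), and CENPA likewise was at least 1.07-fold higher (adjusted p = 0.319). Both had passed the filter only through these anti-IL-15 arrays, so these bounds are a description. CENPW and HMGB2 had every anti-IL-15 array above every control array, 5.56% of the measured genes against 0.261% of all genes. For HMGB2 this held for the probe used (8.42 to 9.30 against 7.25 to 8.37), while the difference of its second probe was -0.11. Leaving out each animal in turn gave 0 to 6 called genes. The 6 came without anti-IL-15 animal 5 and were CCNB2, CDC20, BIRC5, CENPM, CENPW and TOP2A, of 19 called among all 9190. Among the anti-IL-15 arrays after treatment, animal 5 had the lowest level of CCNB2, CDC20, BIRC5, CENPM, CENPW and TOP2A. Leaving it out therefore raises these differences, and the count is a description.

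Before treatment the arms gave no called gene among all genes (0%, limma), with 964 of 9190 (10.5%) at an unadjusted p under 0.05. Of the 36 mitosis genes, 5 (13.9%) passed the unadjusted threshold, all higher in the animals that later received anti-IL-15. The smallest p belonged to BIRC5, with a difference of 0.98 ± 0.34 (adjusted p = 0.373). AURKB, UBE2C and TOP2A differed by 0.91, 0.30 and 0.26, and INCENP by 0.58 (adjusted p from 0.399 to 0.476). The share of 13.9% lay near the 10.5% of all genes, so these 5 are given as a description. Of the genes called with anti-IL-15, CDC20 differed by 0.86, CENPW by 0.57, CCNB2 by 0.25 and CCNA2 by -0.04. In the control arm a median of 24.5 (23 to 26) of the 36 genes was detected per array at the earlier time. At the later time it was 21 (20 to 28). In the anti-IL-15 arm the median was 27 (21 to 28) at the earlier time and 29 (18 to 35) at the later. Because 7 of the 36 genes passed the filter only through the later anti-IL-15 arrays, these counts are a description. Over all 47230 probes, the median detected per array went from 13212.5 to 12606.5 in the control arm. In the anti-IL-15 arm that median went from 12976 to 12274.

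Fewer cells were sorted at the later time from 5 of 5 anti-IL-15 pairs and 4 of 6 control pairs. The log2 ratio of cell numbers was -2.32, -2.32, -0.56, -2.92, 0.08 and 0.79 in control animals 1 to 6 and -2.71, -2.65, -2.49, -1.25 and -1.28 in anti-IL-15 animals 1, 2, 4, 5 and 6. The change of CENPW in control animals 1 to 6 was 0.70, 1.13, 0.43, 1.32, -0.35 and -0.85, largest where the cell number fell most. Within the control arm Pearson's r was -0.96 (exact permutation p = 0.00556, two-sided, adjusted over 8 relations 0.0444) and Spearman's rho -0.99 (exact permutation p = 0.00556, adjusted 0.0444), with r = -0.87 without the 2 animals farthest from the median ratio. Over all 11 animals r was -0.69 (permutation p = 0.0270, adjusted 0.104), rho was -0.60 (permutation p = 0.0578, adjusted 0.116), and without the 2 of these 11 animals farthest from their median r was -0.13, so the pooled relation rests on them.

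For CDC20 the control animals gave changes of 2.54, 1.23, 0.38, 2.20, -0.89 and 0.34. In animals 1, 4 and 6 of that arm the change starts from an undetected level (4.56, 4.83 and 4.73), which limits its size. Here r was -0.84 (exact permutation p = 0.05, adjusted 0.104) and rho -0.84 (exact permutation p = 0.0444, adjusted 0.116), with r = -0.83 without the 2 farthest animals. Over all 11 animals CDC20 gave r = -0.61 and rho = -0.61 (permutation p = 0.0519 and 0.0528, adjusted 0.104 and 0.116), and r was -0.23 without the 2 farthest. CCNA2 and CCNB2 gave r of 0.43 and -0.67 and rho of 0.35 and -0.67 in the control arm (exact permutation p = 0.439 and 0.117 for r, adjusted 0.502 and 0.187, and 0.511 and 0.156 for rho, adjusted 0.584 and 0.207). Over all 11 animals they gave r of -0.10 and -0.43 and rho of -0.13 and -0.47 (permutation p from 0.143 to 0.754, adjusted from 0.207 to 0.754), and neither relation passed. Without the 2 farthest animals r was 0.96 for CCNA2 and -0.62 for CCNB2 in the control arm, which leaves 4 animals, and 0.34 and -0.14 over the larger set, so the sign for CCNA2 there depends on those 2. The 5 anti-IL-15 pairs are too few for a correlation of their own. With the log2 cell number as a covariate none of the 4 genes was called, and their changes were 1.01 for CDC20, 0.75 for CENPW, 1.13 for CCNA2 and 0.69 for CCNB2.

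**Figure D4:**
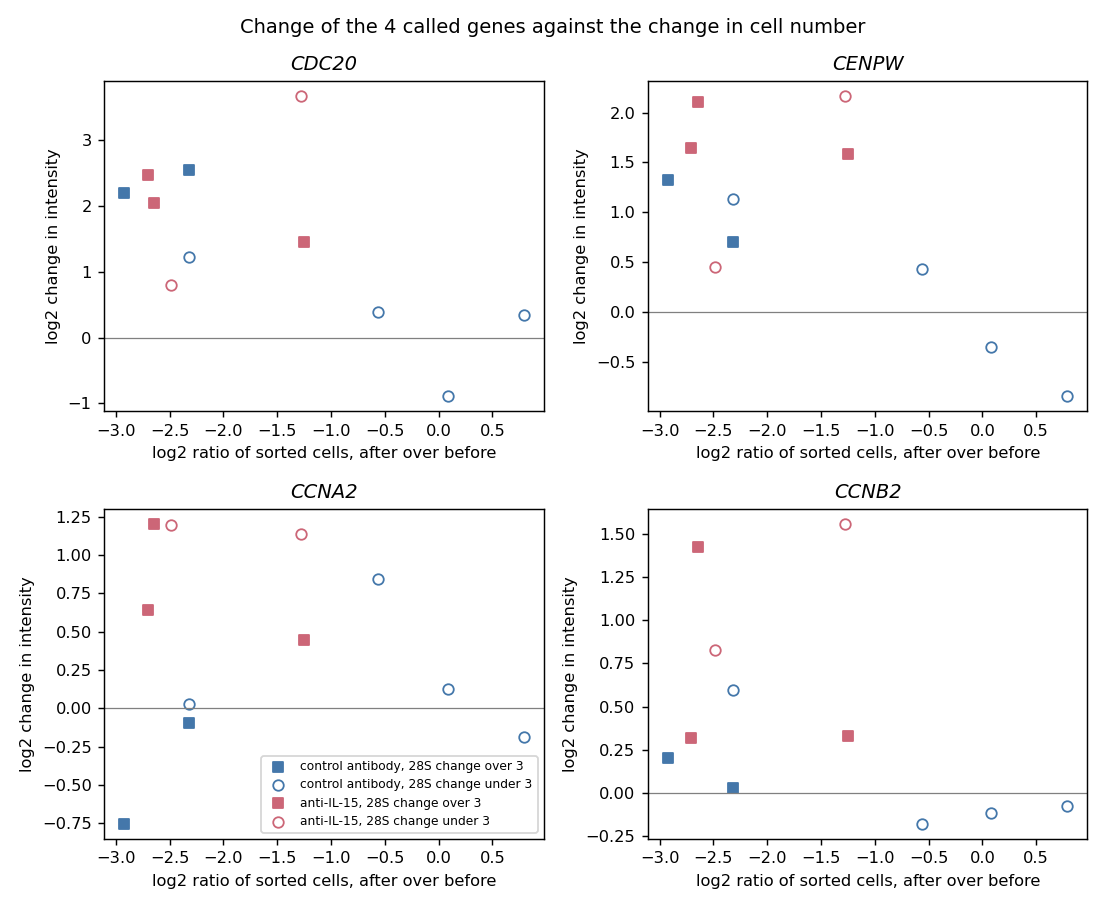
Log2 change of CDC20, CENPW, CCNA2 and CCNB2 in each of the 11 paired animals against the log2 ratio of sorted cells (after over before). Squares mark the 5 animals whose 28S ribosomal probe was higher by more than 3 (log2) after treatment; in the CENPW panel the 2 control animals with more cells after than before, at 0.08 and 0.79, have the values -0.35 and -0.85.

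The signal of a 28S ribosomal RNA probe, a measure of ribosomal RNA carried into the labelled product, also differed between the times. Its change was 4.10, -0.50, -3.62, 3.67, -0.86 and -1.93 in control animals 1 to 6 and 3.66, 4.28, 0.13, 4.10 and -1.91 in anti-IL-15 animals 1, 2, 4, 5 and 6. In the control arm the CDC20 change was 2.20 and 2.54 in the 2 animals with a 28S change above 3 and -0.89 to 1.23 in the other 4. In the anti-IL-15 arm it was 1.45 to 2.47 in the 3 animals above 3 and 0.80 and 3.66 in the other 2. The CCNA2 change was 0.44 to 1.20 in those 3 and 1.14 and 1.19 in the other 2. Without the 5 animals above 3, no mitosis gene was called, with fitted changes after anti-IL-15 of 2.23 for CDC20, 1.31 for CENPW, 1.17 for CCNA2 and 1.20 for CCNB2 in 2 pairs. With the 28S probe as a covariate only CCNA2 was called, with a change of 1.13. The part of cell number and ribosomal signal in the results was not tested beyond these fits.

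The call of 4 genes depended on single animals and on the pairing. Without anti-IL-15 animal 1 or animal 2 none was called, and without anti-IL-15 animal 4 or 6 or control animal 5 only CDC20 and CENPW were. CCNA2 alone lost its call without control animal 1, 2 or 6. Leaving out the animal as a replicate block gave none, and the animal as a random replicate block gave CENPW alone. The fitted change stayed above 0 in all 24 alternatives that gave a value, from 1.01 to 2.41 for CDC20 (called in 17), 0.75 to 1.88 for CENPW (called in 18), 0.37 to 1.17 for CCNA2 (called in 10) and 0.36 to 1.20 for CCNB2 (called in 13).

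**Figure D5:**
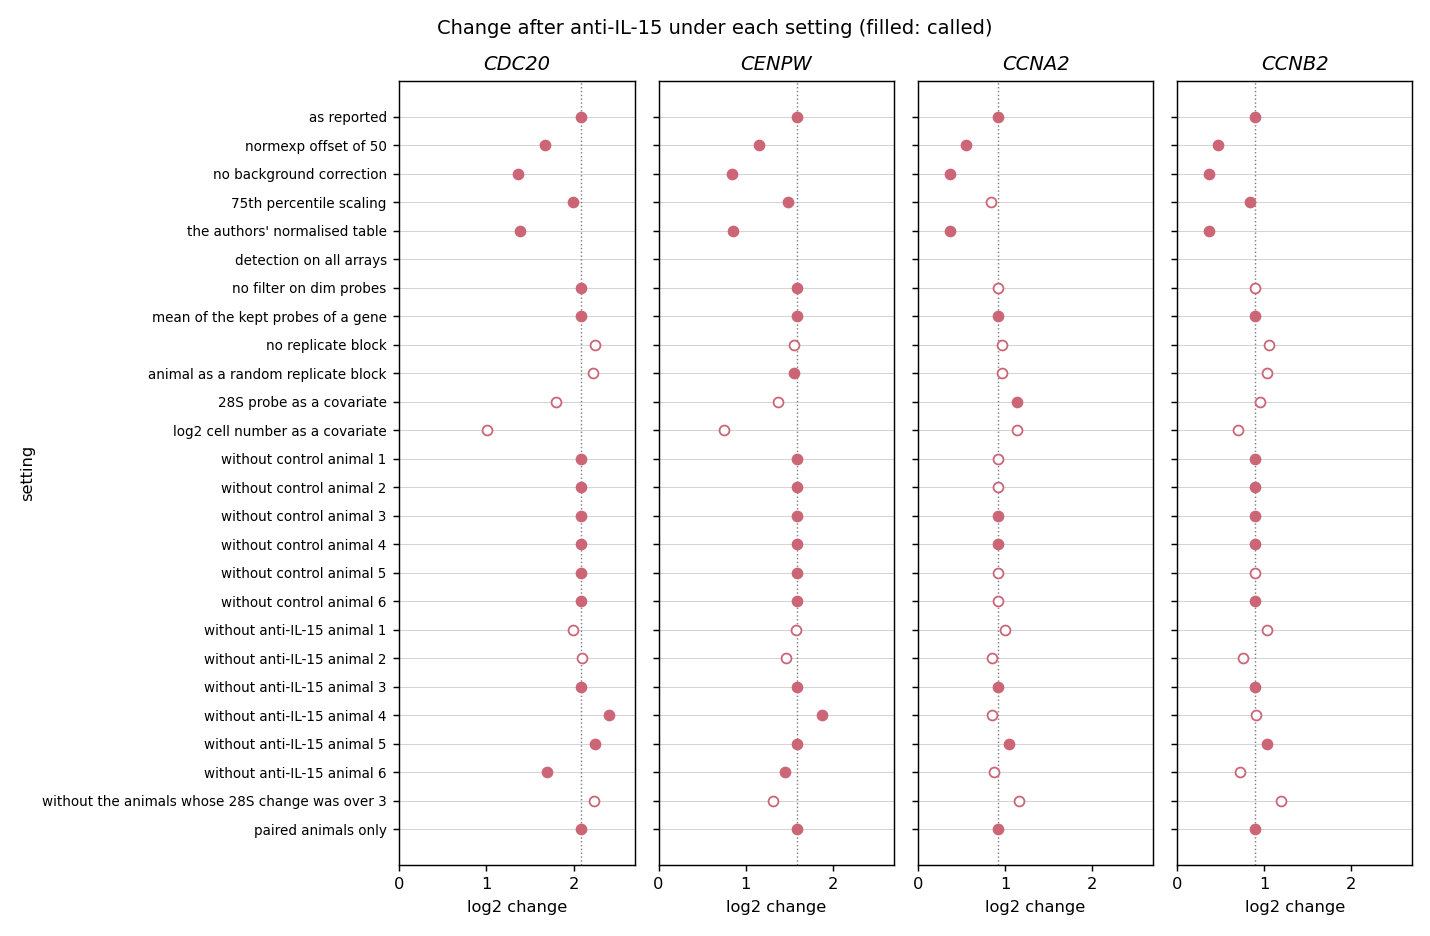
Fitted log2 change after anti-IL-15 of the 4 called genes under the reported setting and each alternative; filled points are called and dotted lines mark the reported value. No point lies below 0, and CENPW is filled under 18 of the 24 alternatives; the setting that asks for detection on all arrays has no points because none of the 4 genes was detected on all 23.

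Other genes of the same machinery are given as lists. Over all genes tested, 0.446% rose and 0.37% fell with anti-IL-15, and 2.19% were called with the control antibody. The counts in these lists are small and are a description. Of 15 measured core subunits and inhibitors of the anaphase-promoting complex, to which CDC20 binds, none was called after anti-IL-15, and their median change was -0.06. Nor was any of 9 cohesin and separase genes, 10 other spindle and cytokinesis genes, 15 other mitotic kinases and regulators, or 8 other condensin and chromatin genes, with medians from -0.07 to 0.05. Among 15 other kinetochore and centromere genes 1 rose, OIP5, which helps load CENPA at centromeres, with a change of 0.92 ± 0.21 (limma, adjusted p = 0.0452), and the median of that list was -0.08. In the control arm 1 of those 15 rose, SKA2, a kinetochore subunit, with 0.83 ± 0.19 (limma, adjusted p = 0.0366).

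Genes of DNA replication and nucleotide supply, which act before mitosis, had 2 of 19 measured members called after anti-IL-15, both higher, with a median of 0.41. Over all genes tested, 0.446% rose and the median was -0.05. TYMS, the thymidylate synthase, changed by 1.53 ± 0.26 and GINS2, a subunit of the replicative helicase complex, by 1.22 ± 0.21 (limma, adjusted p = 0.00873 for both). In the control arm none of those 19 was called and their median was 0.09. Among 17 measured genes of G1 and quiescence 1 fell after anti-IL-15, the D-type cyclin gene CCND2, by 0.99 on the log2 scale (limma, adjusted p = 0.0181). In the control arm CCND1, another D-type cyclin gene, rose by 1.00 and RBL2, a pocket protein gene, fell by 1.24 (limma, adjusted p = 0.0367 and 0.0102). Over all genes, 0.37% fell with anti-IL-15 and 2.19% were called with the control antibody.

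Over the 11 per-animal changes, the genes most like CDC20 among all tested were the sialyltransferase gene ST8SIA4, CENPM, COMMD4, TYMS and PTGR1, with Pearson's r from 0.86 to 0.91. These r values are the highest among all genes tested and are given as a description, since the animals share arms, cell numbers and ribosomal signal. ST8SIA4 itself had a fitted change of 0.05 with anti-IL-15 (limma, adjusted p = 0.919). The other 35 mitosis genes had a median r of 0.40 with CDC20, 31 of them above 0, against a median of -0.06 over all genes.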

How the data were processed

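The authors deposited 2 tables. The first holds a raw intensity per probe and array, with array medians of 92 to 104, and a detection p-value that sets the probe against that array's negative controls, per the file headers. The second, deposited by the authors as log2 values, is quantile normalised without background subtraction, as its match to the signals shows, and served as an alternative. The submitters' processing notes name limma, with a version not given in the sources used here. Per the labels' protocols, RNA passed a quality threshold and equal masses were amplified, so levels are relative to total RNA.

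Background was removed with normexp (offset 16), followed by quantile normalisation and log2 (neqc, limma 3.58.1, R 4.3.3). After 9 probes with a signal of 0 were dropped, 15744 of 47230 probes passed the detection filter (p under 0.05 on at least 5 arrays). One gene symbol was listed for 11131 of them, several for 1 and none for 4612, and the highest-mean probe stood for a gene. The changes and their difference came from 1 limma fit (trend) with animal as a block, the comparisons between the arms at each time from fits over 12 and 11 arrays. P-values were adjusted by Benjamini-Hochberg over all 9190 genes with a threshold of 0.05. The fit was tested on simulated data.

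Arrays were paired by the donor label. The deviations of an animal's earlier and later array from their group means correlated at 0.05 to 0.51 (median 0.29). P-values measure the spread between animals. Relations to cell number used two-sided permutation tests, exact for 6 animals and with 100000 resamples for 11. The named genes were those past the threshold and the one with the smallest p in each of 7 roles, and the other measured genes were given by values or ranges. Members, lists and tests were chosen with earlier results of these data known. The alternatives were the offset, the background correction, the scaling, the authors' table, the filter, the mean of a gene's probes, the block, 2 covariates and each animal left out, and after the data were seen also the animals with a large 28S change left out and paired animals only.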

Additional observations from a re-analysis of the deposited data

Results flagged for a closer look

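Of 48 sets of values tested by Dixon's criterion, 5 had 1 value far from the others, and chance alone gives about 1 in 20. CDC20 read 6.71 after treatment in anti-IL-15 animal 5, where the other 5 animals read 8.63 to 9.55. CCNB2 read 5.02 before treatment in control animal 3, against 4.33 to 4.58 in the others of its group. TOP2A read 4.85 before treatment in control animal 2, against 4.36 to 4.45, all undetected. AURKB changed by 1.98 in control animal 2, against -0.32 to 0.47 in the other control animals. KIF2C changed by -0.72 in control animal 1, against -0.03 to 0.21 in the others. The cause was not tested.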

How the results depend on the processing

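With anti-IL-15, 4 of 36 genes were called, and the count was 2 with no filter on dim probes (of 50 genes), 1 with the animal as a random replicate block or with the 28S covariate, and 0 with detection on all arrays (of 11 genes), no replicate block, the cell number covariate or without the animals with a large 28S change. It was 5 with no background correction. Leaving out each animal gave 0 to 5. With p-values adjusted over all 15744 kept probes, 3 of the 47 kept probes of these genes were called, of 41 probes called in all. After treatment, 0 were called, and 1 with an offset of 50, no background correction, the authors' table or the 28S covariate, with 0 to 6 as each animal was left out, 1 of them without control animal 3. The control change, the difference and the comparison before treatment gave 0 under each alternative run. The differences between the arms of AURKB and BIRC5, 0.27 and 0.25, ran from -0.084 to 0.58 and from -0.052 to 0.52 as each animal was left out, and fell below 0 without anti-IL-15 animal 6. The cause was not tested, except that fewer genes or animals enter some of these fits.

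Over all genes, the 75 calls with anti-IL-15 became 1 with no replicate block, 2 with the cell number covariate, 5 without the animals with a large 28S change, 15 with the random replicate block, 18 with the 28S covariate, 27 with no filter and 49 with detection on all arrays, and the 201 with the control antibody ran from 0 (cell number covariate) to 868 (28S covariate). The 1 call each for the difference and after treatment ran from 0 to 18 and from 0 to 19. Slide as a block was not run, since no slide is named in the files used here. Many of these genes lay near the detection floor, which limits the size of fold changes there.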
